A study of Mus musculus with 3 samples.

Results

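The enzymes and carriers of sugar metabolism were followed here across 3 populations of mouse bone marrow progenitors, at the level of single cells summed per library. The set holds 34 genes listed by symbol: glucose and monocarboxylate carriers, the enzymes of glycolysis, lactate dehydrogenases, pyruvate dehydrogenase and 2 of its kinases, the pentose phosphate pathway, and Hif1a, a transcription factor of the response to low oxygen. Of these 34 genes, 33 reached the minimum of 10 UMIs over the 3 libraries and were used, among 27998 genes listed and 12361 genes that reached the same minimum. The remaining gene, Eno2, the neuronal form of enolase, had 3 UMIs, all in LMPP, and is counted only in summed levels.

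The cells were taken out of C57BL/6J mouse bone marrow, and the labels used here give neither the ages nor the number of the mice. The sort gates were cKit+ Sca1+ Flt3+ IL7Ra- B220- for lymphoid-primed multipotent progenitors (LMPP), and for common lymphoid progenitors (CLP) cKit+ Sca1+ Flt3+/- IL7Ra+ B220-. Pro-B cells were gated as cKit+ Sca1- Flt3- IL7Ra+ B220+. Each population was captured as 1 library with droplet chemistry that tags the 3′ end of transcripts (10x Chromium 3′ v2), and a count is a unique molecular identifier (UMI), a tag that marks 1 captured transcript. Cultured iLS cells belong to the study but were not analysed here. No population has a replicate library, so no difference was tested, and a difference between populations cannot be told apart from one between droplet runs.

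Glycolysis splits glucose in the cytoplasm. Hexokinase and phosphofructokinase spend ATP in its upper steps, and the lower steps, from glyceraldehyde phosphate to pyruvate, return ATP and NADH. Pyruvate is either reduced to lactate, which regenerates NAD and leaves the cell through monocarboxylate carriers, or enters the mitochondrion through pyruvate dehydrogenase. The pentose phosphate pathway branches off at glucose 6-phosphate and supplies NADPH and the ribose phosphate used for nucleotides, and dividing lymphocyte progenitors draw on both routes.

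The filtered libraries held 579 LMPP cells with 4014657 UMIs, 948 CLP cells with 5967352 UMIs and 1106 pro-B cells with 7367156 UMIs. Levels are UMIs of a gene per 1000000 UMIs of its library (CPM). They are not divided by gene length, since 1 transcript gives 1 tag, but capture may differ between genes. All intervals are exact 95% intervals that cover counting error only. In ratios 0 UMIs were set to 3, which is 0.75 CPM in LMPP, 0.50 CPM in CLP and 0.41 CPM in pro-B. The exact interval of 0 UMIs reaches higher, to 0.50 CPM in pro-B. The marker genes went with the labels: the summed LMPP markers stood at 1003 CPM in LMPP, 561 CPM in CLP and 18.7 CPM in pro-B, the CLP markers at 743 CPM in LMPP, 3116 CPM in CLP and 1584 CPM in pro-B, and the pro-B markers at 14.7 CPM in LMPP, 654 CPM in CLP and 11976 CPM in pro-B. These lists include genes of the sorted proteins. Pax5 had 0 UMIs in LMPP, and Cd34 had 0 in pro-B. Of the 6 markers of granulocytes and monocytes, 5 had a UMI in LMPP, 4 in CLP and 2 among pro-B cells. Their sum was 535 CPM for LMPP, 158 CPM for CLP and 82.4 CPM for pro-B. The pro-B sum came from Lyz2, with 606 UMIs (82.3 CPM), and Prtn3, with 1 UMI, while Mpo had 0 there. Lyz2 stood at 76.6 CPM among CLP cells and at 156 CPM among LMPP cells. Cells with 3 or more UMIs of this list numbered 328 for LMPP, 126 for CLP and 44 for pro-B. Markers of innate lymphoid and NK cells, mostly Nkg7, summed to 154 CPM for LMPP, 231 CPM for CLP and 8.14 CPM for pro-B. T cell markers stayed at or under 0.75 CPM and erythroid markers at or under 1.09 CPM. Plasmacytoid dendritic markers summed to 49.6 CPM in LMPP, 105 CPM in CLP and 0.41 CPM in pro-B. Mature B and plasma cell markers summed to 21.2 CPM in LMPP, 38.0 CPM in CLP and 9.23 CPM in pro-B. Megakaryocyte markers had 22.2 CPM in LMPP, 4.36 CPM in CLP and 1.36 CPM in pro-B. Apart from the granulocyte and monocyte list, 161 LMPP, 337 CLP and 4 pro-B cells had 3 or more UMIs of other-lineage markers. With Nkg7 also left out these were 45, 130 and 2 cells. The share of ribosomal protein genes in all UMIs was 43.5% in LMPP, 41.9% in CLP and 29.6% among pro-B cells. Cells with 3 or more UMIs of an S phase list, after thinning to 2000 UMIs, made up 21.5% in LMPP, 29.1% in CLP and 55.5% among pro-B cells, and those with 3 or more of a G2/M list 4.01% in LMPP, 6.28% in CLP and 54.6% among pro-B cells. The part of these differences in the results was not tested.

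The sequences shown are the promoters of the 2 lactate dehydrogenase genes and the 2 lactate carriers, pairs whose pro-B over CLP ratios had opposite signs. The ratio of the carrier gene Slc16a3 did not exceed counting error. These promoters were chosen after the values were seen. Each run is the 250 bases before a RefSeq start of the gene (GRCm38.p6), read in the gene's direction. Capitals mark CACGTG, the palindromic E-box core, and ACGTG, the core of the hypoxia response element, on either strand. Every CACGTG also holds ACGTG, on both strands.
Ldha, chr7:46845554-46845803, plus strand: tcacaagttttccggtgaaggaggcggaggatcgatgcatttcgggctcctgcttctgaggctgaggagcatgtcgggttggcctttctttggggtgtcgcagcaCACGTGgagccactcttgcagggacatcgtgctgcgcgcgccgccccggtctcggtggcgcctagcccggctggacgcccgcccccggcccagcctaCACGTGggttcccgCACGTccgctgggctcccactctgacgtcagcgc
Ldhb, chr6:142507958-142508207, minus strand: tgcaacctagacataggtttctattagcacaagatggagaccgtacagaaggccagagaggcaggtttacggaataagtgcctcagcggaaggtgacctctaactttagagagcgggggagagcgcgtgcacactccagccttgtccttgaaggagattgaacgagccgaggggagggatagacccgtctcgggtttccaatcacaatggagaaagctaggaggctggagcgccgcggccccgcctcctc
Slc16a1, chr3:104638414-104638663, plus strand: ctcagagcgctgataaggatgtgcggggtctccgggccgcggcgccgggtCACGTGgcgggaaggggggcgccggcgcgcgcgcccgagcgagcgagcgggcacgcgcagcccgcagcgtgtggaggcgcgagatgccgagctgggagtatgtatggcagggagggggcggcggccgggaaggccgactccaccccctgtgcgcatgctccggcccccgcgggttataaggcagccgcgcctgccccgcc
Slc16a3, chr11:120948817-120949066, plus strand: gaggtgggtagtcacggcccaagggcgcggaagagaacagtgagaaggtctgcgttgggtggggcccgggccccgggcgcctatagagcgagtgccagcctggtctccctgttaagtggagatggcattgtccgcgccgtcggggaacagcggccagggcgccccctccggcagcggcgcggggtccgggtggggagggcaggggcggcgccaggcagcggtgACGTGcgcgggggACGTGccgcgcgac

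The Ldha window shown held 3 separate marked sites, 2 of them CACGTG. Ldha has 2 RefSeq entries, of which the first is shown, and that of the other (chr7:46846832-46847081) held neither motif. Both windows lie inside the GENCODE gene interval of Ldha, which begins upstream of them. The other 3 genes have 1 RefSeq entry each, and the Slc16a1 promoter held 1 CACGTG. The Slc16a3 promoter held 2 ACGTG sites close to the RefSeq start. Its window also lies inside the GENCODE gene interval, which begins upstream of it at chr11:120948480. The Ldhb window held neither motif. Among 32851 promoters of this length, 16.6% held ACGTG and 6.02% held CACGTG. Among the 45 promoters of the 32 members with a RefSeq entry, 15 held ACGTG (13 genes) and 4 held CACGTG (Pfkm, Ldha, Slc16a1 and Hif1a). The palindromic EBF1 core motif occurred in 0.779% of all promoters and in 0 of the 45. These matches are descriptions of letters and say nothing of binding.

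The summed level of the 33 genes was lower in CLP than in LMPP and higher in pro-B than in either. It stood at 3610 CPM in LMPP, 3039 CPM in CLP and 4811 CPM in pro-B, or 0.361% of UMIs in LMPP, 0.304% in CLP and 0.481% among pro-B cells. This order was the same under every one of the 13 alternatives run. Of these, the 1.5-fold threshold, the 50 CPM minimum and the setting without a filter cannot change a sum. Leaving out doublets removes 0 pro-B cells. The log2 ratio of the sum lay between −0.32 and −0.17 for CLP over LMPP. It lay between 0.35 and 0.73 in pro-B over CLP, and between 0.07 and 0.51 in pro-B over LMPP. A few genes carried most of it: the first 5 members held 51.3% of the LMPP sum, 60.04% of the CLP sum and 65.7% of the pro-B sum. Gapdh led in LMPP and pro-B, and Pgls in CLP. Without these 2 genes the sums were 2637 CPM in LMPP, 1867 CPM in CLP and 2700 CPM in pro-B, so the lower CLP level remained and the pro-B level lay close to that of LMPP. Per cell, thinned to 2000 UMIs, the median was 7 member UMIs in LMPP (quartiles 5 and 9), 6 in CLP (4 and 8) and 9 in pro-B (6.25 and 11). The 3 distributions overlapped widely, and cells with more than 16 member UMIs were found in pro-B alone.

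**Figure D1:**
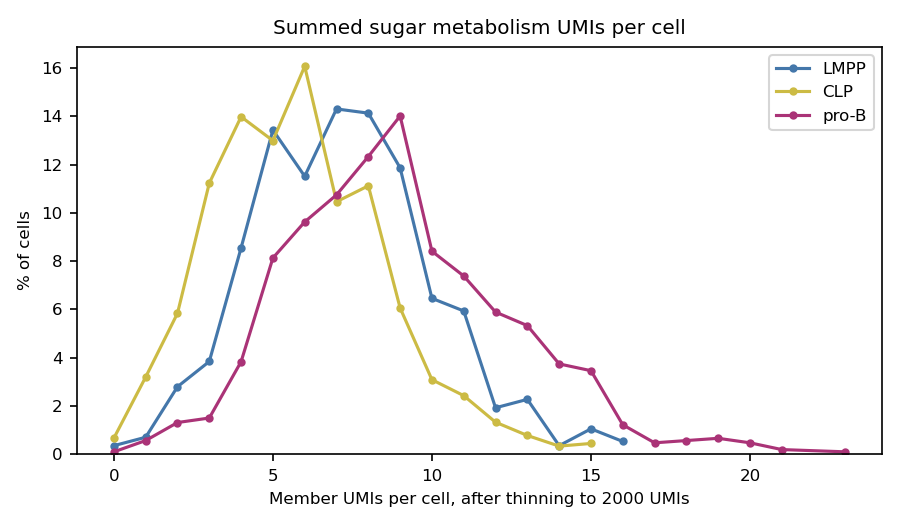
Summed UMIs of the sugar metabolism genes per cell (x axis, UMIs after thinning each cell to 2000 UMIs) against the share of cells (y axis, %), 1 line per library. The pro-B line is shifted to the right, with a median of 9 UMIs, against 6 in CLP and 7 in LMPP, and it alone extends past 16.

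In CLP against LMPP, 1 of 33 members was 2-fold or more higher, where 8.05% of all 12204 genes were, and 6 were 2-fold or more lower, where 7.15% were. The 6 were Hk2, Hk3, Aldoa, Aldoc, Ldhb and Slc16a3, and the 1 was Pgls. The members' median log2 ratio was −0.39, beside −0.01 over all genes. In pro-B against CLP, 9 of 32 members were 2-fold or more higher, beside 13.1% of 12301 genes, and 7 were lower, beside 21.1%. Higher were Pfkp, Gapdh, Pgk1, Eno1, Pkm, Ldha, Slc16a1, Taldo1 and Rpia, and lower were Slc2a3, Hk2, Pfkm, Aldoc, Ldhb, Slc16a3 and Pdk1. The members' median was −0.03 and that of all genes −0.10, so the members lay on both sides of no difference. In pro-B against LMPP, 4 of 33 members were higher, beside 14.1% of 12293 genes, and 10 were lower, beside 22.1%, with medians of −0.20 for the members and −0.08 for all genes. Higher were Pfkp, Slc16a1, Pgls and Rpia, and lower were Slc2a3, the 3 hexokinase genes, Pfkm, Aldoa, Aldoc, Eno3, Ldhb and Slc16a3. Several of these did not stay past 2-fold in every alternative. Rpia, at 1.09, was 0.75 when scaled without mitochondrial and ribosomal protein genes and 0.99 in cells rich in cycle transcripts, and Pfkp was 0.87 in those rich cells. Hk1, at −1.04, was −0.79 with every cell weighted equally and −0.48 in cells low in cycle transcripts, where Aldoa, at −1.57, was −0.80 and Eno3, at −1.08, was −0.99. Each library takes part in 2 of the 3 comparisons, so they are not independent.

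Of the members that passed a minimum level, most were higher at the pro-B step. Of the 15 members that reached 50 CPM in at least 1 of the 2 libraries, 7 were 2-fold or more higher in pro-B than in CLP, beside 20.8% of the genes of such level, and 1 was lower, beside 9.86%. Their median log2 ratio was 0.89, against 0.34 over all genes of that level. With the same minimum, 1 of 16 members was higher in CLP than in LMPP (4.71% of genes) and 3 were lower (2.72%). In pro-B against LMPP, 2 of 17 were higher (21.5%) and 3 were lower (10.1%). The minimum is met by the higher library alone, so a gene can pass only through the library where it is high. Rpia (38.4 CPM in CLP, 98.1 CPM in pro-B) passed through pro-B and Pdk1 (75.9 CPM in CLP, 37.5 CPM in pro-B) through CLP. Hk2 and Ldhb passed through LMPP. These counts therefore describe the members that passed and lend no support to a shift of abundant members. Scaling to the total without mitochondrial and ribosomal protein genes moves every pro-B ratio down: the median of all genes in pro-B over CLP is then −0.41 in place of −0.10, and 8.67% of genes are 2-fold higher and 28.7% lower. Under that scaling 4 members stayed 2-fold above CLP in pro-B and 7 stayed lower. For pro-B over LMPP the all-gene split became 9.42% higher and 30.1% lower, and the members' 3 higher and 12 lower.

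**Figure D2:**
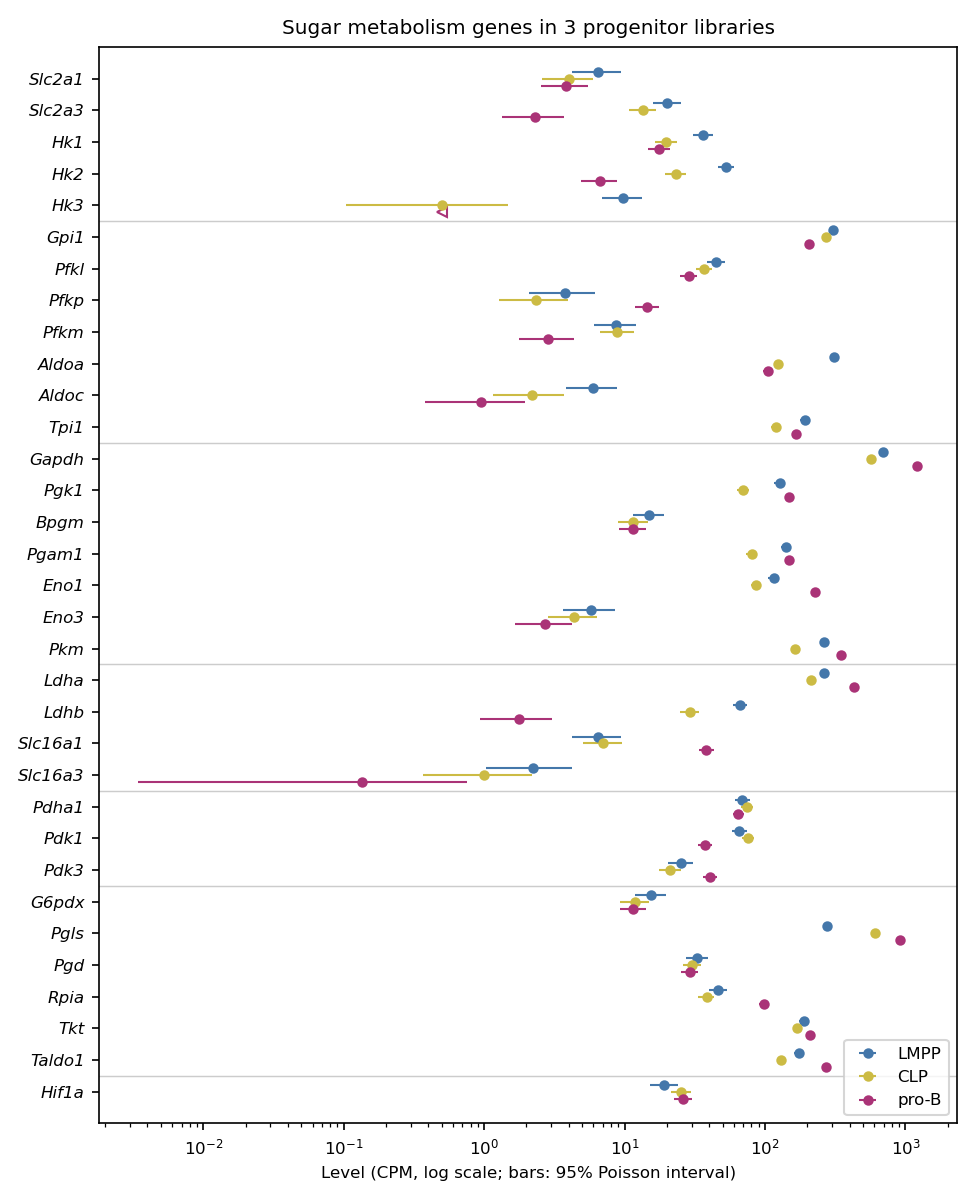
Level of each of the 33 members (x axis, CPM on a log scale) in the 3 libraries, with exact 95% Poisson intervals as bars. Gapdh in pro-B stands at the right end at 1204 CPM, and the open triangle of Hk3 marks the upper end of its interval where pro-B had 0 UMIs.

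Transcripts for glucose entry and its first phosphorylation were lowest in pro-B. The carriers and hexokinases together had 126 CPM in LMPP, 61.0 CPM in CLP and 30.4 CPM in pro-B. Hk2, a hexokinase that is inducible in many tissues, had 212 UMIs (52.8 CPM, interval 45.9 to 60.4) in LMPP. Its counts were 138 (23.1 CPM, 19.4 to 27.3) in CLP and 49 (6.65 CPM, 4.92 to 8.79) in pro-B. Its intervals were separate in all 3 libraries, with a log2 ratio of −1.19 (−1.51 to −0.88) in CLP over LMPP and −1.80 (−2.30 to −1.32) in pro-B over CLP. The CLP over LMPP ratio was −0.79 without cells that carry granulocyte and monocyte markers, short of 2-fold, and −0.99 in cells rich in cycle transcripts. Hk1, the widely expressed hexokinase, had 36.4 CPM in LMPP, 19.8 CPM in CLP and 17.6 CPM in pro-B, so CLP and pro-B did not differ beyond counting error (log2 ratio −0.16, −0.54 to 0.21). The share of Hk1 among hexokinase UMIs was 36.8% (32.02 to 41.7) for LMPP, 45.6% (39.4 to 51.8) for CLP and 72.6% (65.5 to 79.01) for pro-B.

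Hk3, a hexokinase known from myeloid cells, had 39 UMIs in LMPP, 3 UMIs in CLP and 0 UMIs in pro-B. The log2 ratio was −4.27 (−6.61 to −2.62) for CLP over LMPP, and with pro-B set to 3 UMIs that of pro-B over LMPP was −4.58. The exact interval of the pro-B over LMPP ratio reached up to −4.21, nearer to 0 than this set value. Over the alternatives the set value ran from −4.92 to −1.73, nearest to 0 in cells low in cycle transcripts. Within LMPP, 33 of the 39 UMIs lay in the 328 cells with 3 or more granulocyte and monocyte marker UMIs (13.1 CPM) and 6 in the other 251 cells (4.02 CPM). Slc2a3, the high-affinity glucose carrier GLUT3, had 20.2 CPM in LMPP, 13.6 CPM in CLP and 2.31 CPM in pro-B, and was 5.88-fold lower in pro-B than in CLP (log2 −2.56, −3.40 to −1.79). Slc2a1, the carrier GLUT1, had 6.48 CPM in LMPP, 4.02 CPM in CLP and 3.80 CPM in pro-B and the intervals of all 3 overlapped. GLUT1 thereby made up 62.2% (46.5 to 76.2) of the UMIs of both carriers in pro-B, against 22.9% (15.2 to 32.1) in CLP, from 45 and 105 UMIs.

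In the upper steps CLP and pro-B had similar sums, 565 and 524 CPM in CLP and pro-B, below the 869 CPM of LMPP. Aldoa, the main aldolase, which splits fructose bisphosphate, had 310 CPM (293 to 328) in LMPP, 124 CPM (116 to 134) in CLP and 105 CPM (97.4 to 112) in pro-B. Most of its difference lay at the first step, with a log2 ratio of −1.32 (−1.45 to −1.19) in CLP over LMPP and −0.25 (−0.40 to −0.10) in pro-B over CLP, which was 0.42, the opposite direction, in cells low in cycle transcripts. Aldoc, a minor aldolase, had 24 UMIs in LMPP, 13 UMIs in CLP and 7 UMIs in pro-B (5.98 CPM in LMPP, 2.18 CPM in CLP and 0.95 CPM in pro-B). Its CLP over LMPP log2 ratio was −1.46 (−2.55 to −0.43), but it was short of 2-fold in cells rich in cycle transcripts (−0.36), without cells carrying granulocyte and monocyte markers (−0.57) and without cells carrying markers of other lineages (−0.90). Its pro-B over CLP ratio of −1.20 (−2.76 to 0.23) did not exceed counting error. Gpi1, which interconverts glucose and fructose phosphates, had 303 CPM in LMPP, 271 CPM in CLP and 205 CPM in pro-B. Tpi1, which interconverts the triose phosphates, had 192 CPM in LMPP, 119 CPM in CLP and 168 CPM in pro-B, with a log2 ratio of −0.69 in CLP over LMPP. Its pro-B over CLP ratio was 0.49, and 0.01 in cells low in cycle transcripts.

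The 3 phosphofructokinases, whose product commits sugar to glycolysis, kept Pfkl, the liver-type form, in front everywhere, at 44.8 CPM in LMPP, 37.0 CPM in CLP and 28.6 CPM in pro-B. Behind it the other forms changed places. Pfkp, the platelet form, had 15 UMIs (3.74 CPM) in LMPP, 14 (2.35 CPM) in CLP and 107 (14.5 CPM) in pro-B, a 6.19-fold higher level than in CLP (log2 2.63, 1.82 to 3.55). Its CLP over LMPP ratio of −0.67 (−1.83 to 0.48) turned to 0.99 without cells that carry granulocyte and monocyte markers, and its pro-B over LMPP ratio of 1.96 (1.17 to 2.85) was 0.87 in cells rich in cycle transcripts. Pfkm, the muscle form, had 8.72 CPM in LMPP, 8.88 CPM in CLP and 2.85 CPM in pro-B, 3.12-fold lower in pro-B than in CLP (log2 −1.64, −2.44 to −0.89). Pfkp made up 31.6% (26.6 to 36.8) of phosphofructokinase UMIs in pro-B, against 4.86% (2.68 to 8.02) in CLP and 6.52% (3.70 to 10.5) in LMPP. Pfkp overlaps Pitrm1 and Pfkm overlaps Senp1 on the other strand, and the strand setting of the counting is not stated. Pitrm1 stood at 12.5 CPM in LMPP, 14.7 CPM in CLP and 15.7 CPM in pro-B and Senp1 at 23.7 CPM in LMPP, 26.98 CPM in CLP and 22.3 CPM in pro-B.

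**Figure D3:**
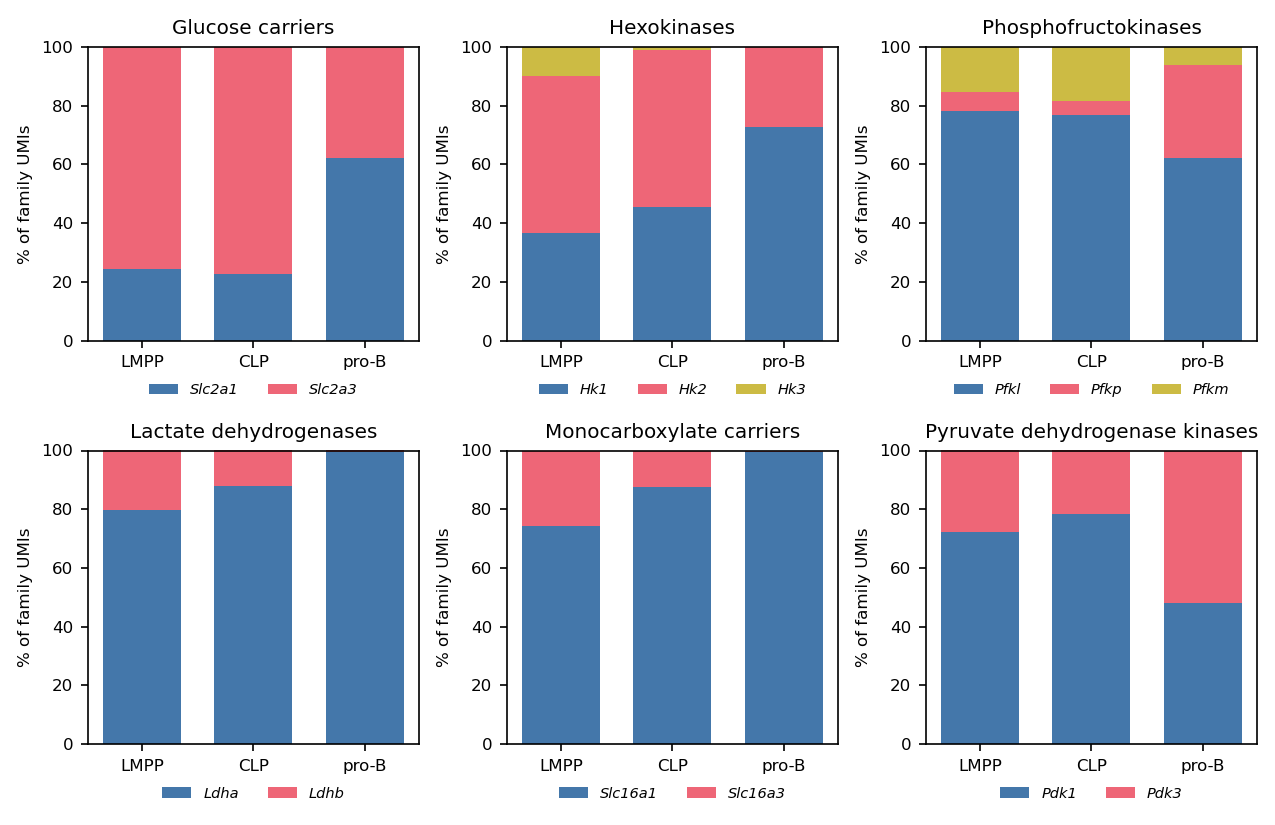
Share of each form in the UMIs of its gene family (y axis, %) in the 3 libraries, for 6 families. The pro-B bars differ from the other two in all 6 panels, with Ldhb at 0.41% and Pfkp at 31.6% in pro-B.

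The lower steps summed to 1367 CPM in LMPP, 984 CPM in CLP and 2089 CPM in pro-B. Their sum was highest in pro-B, as were those of the lactate and the pentose phosphate genes. The lactate genes summed to 337 CPM in LMPP, 249 CPM in CLP and 470 CPM in pro-B. The pentose phosphate genes summed to 732 CPM in LMPP, 984 CPM in CLP and 1528 CPM in pro-B. Of this, Pgls alone made up 275.5 CPM in LMPP, 603 CPM in CLP and 907 CPM in pro-B. Over the 6 pentose phosphate genes the median log2 ratio of CLP over LMPP was −0.21. Gapdh, which oxidises glyceraldehyde phosphate and makes NADH, had 698 CPM (672 to 724) in LMPP, 569 CPM (550 to 588) in CLP and 1204 CPM (1179 to 1229) in pro-B. Pgk1, the first ATP-making step, had 127 CPM in LMPP, 69.4 CPM in CLP and 149 CPM in pro-B, and Pgam1, which moves the phosphate group, had 140.5 CPM in LMPP, 80.6 CPM in CLP and 149 CPM in pro-B. Eno1, the main enolase, had 116 CPM in LMPP, 86.3 CPM in CLP and 227 CPM in pro-B, and Pkm, pyruvate kinase, the last ATP-making step, 265 CPM in LMPP, 163 CPM in CLP and 347 CPM in pro-B. All 5 were lowest in CLP, and each CLP interval lay below both others.

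The log2 ratios of pro-B over CLP were 1.39 for Eno1 (1.25 to 1.54), 1.10 for Pgk1 (0.94 to 1.27), 1.09 for Pkm (0.98 to 1.20), 1.08 for Gapdh (1.02 to 1.14) and 0.89 for Pgam1 (0.73 to 1.05). Scaled without mitochondrial and ribosomal protein genes, Eno1 stayed past 2-fold at 1.08, while Pgk1 (0.79), Pkm (0.78) and Gapdh (0.77) were short of it. The genes differed in how pro-B compared with LMPP. Eno1 was higher in pro-B (log2 0.97, 0.82 to 1.12), as was Gapdh (0.79, 0.73 to 0.85), though over the alternatives the Gapdh ratio ran from 0.02, in cells low in cycle transcripts, to 0.95. Pgam1 did not differ beyond counting error (0.09, −0.06 to 0.24), and Pgk1 at 0.23 became −0.11 with the scaling without ribosomal and mitochondrial genes. The minor members did not share the order: Bpgm, which makes bisphosphoglycerate, had 14.9 CPM in LMPP, 11.6 CPM in CLP and 11.4 CPM in pro-B, and Eno3, the muscle enolase, 5.73 CPM in LMPP, 4.36 CPM in CLP and 2.71 CPM in pro-B. The counts per gene do not separate the M1 and M2 forms of Pkm. Gapdh has 86 annotated near-identical copies, of which 1 is in the files with 3.12 to 4.52 CPM, and Eno1 has Eno1b at 16.7 CPM in LMPP, 9.72 CPM in CLP and 20.6 CPM in pro-B, so reads of these genes may be divided among copies.

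**Figure D4:**
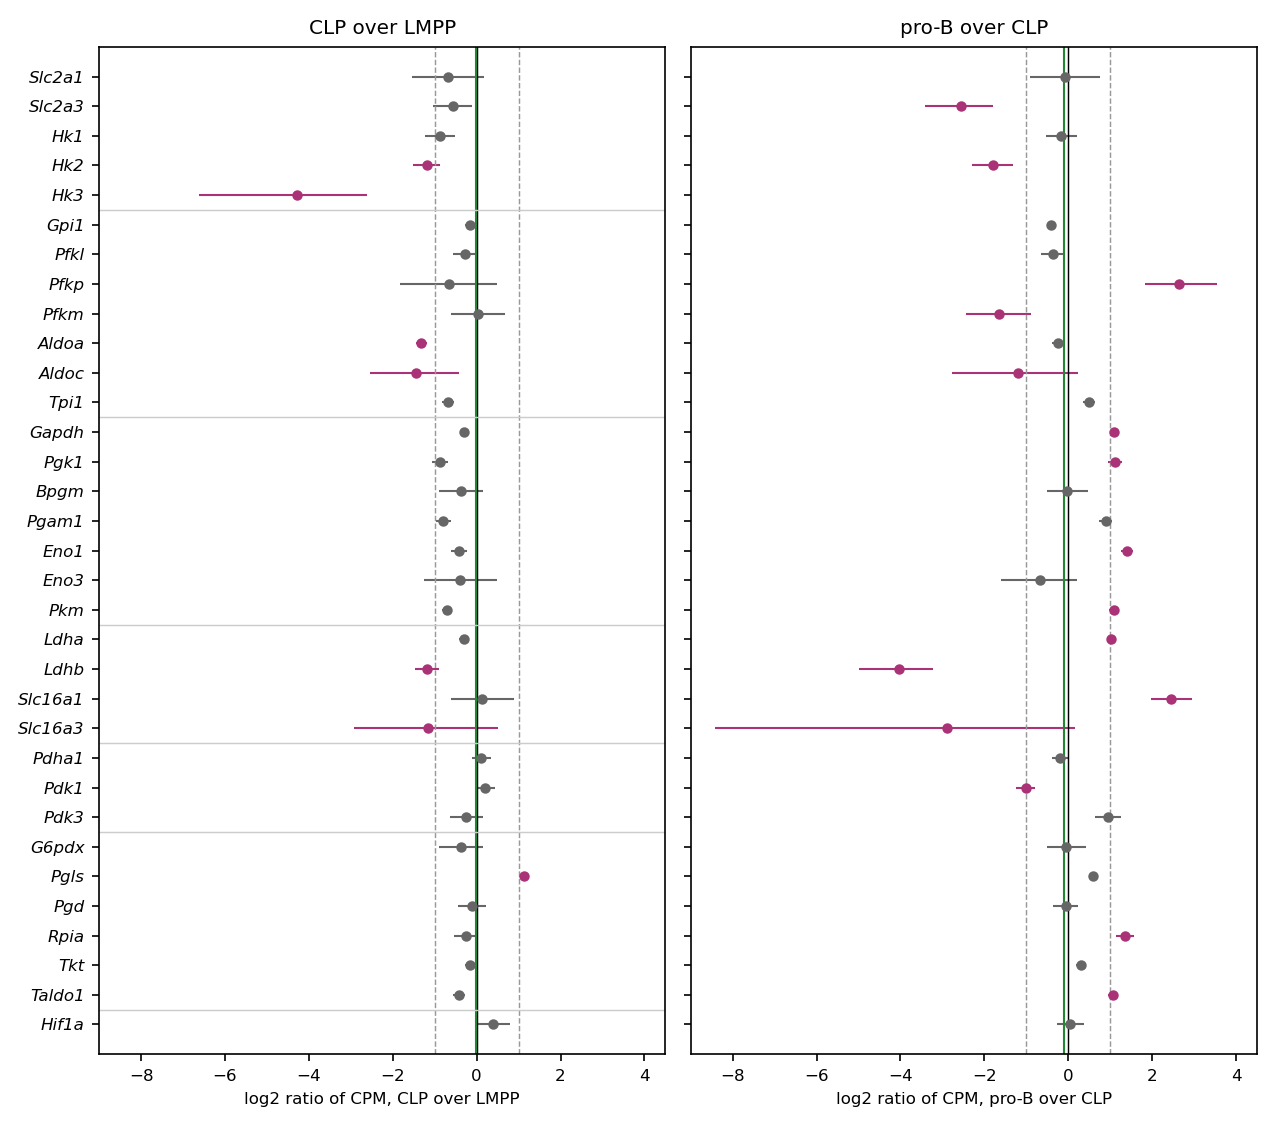
Log2 ratio of each member (x axis) in 2 panels, CLP over LMPP (left) and pro-B over CLP (right), with exact 95% intervals. Hk3 has no point on the right, where it had 3 UMIs in CLP and 0 in pro-B. Magenta points are 2-fold or more from 0, dashed lines mark 2-fold and the green line marks the median of all genes. In the pro-B over CLP panel the lower glycolysis genes Gapdh, Pgk1, Eno1 and Pkm lie right of the 2-fold line, and Ldhb lies at −4.05.

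The 2 lactate dehydrogenase genes diverged. Ldha (chr7:46841475-46855627, plus strand, GRCm38), whose M subunit favours the making of lactate, had 1051 UMIs (262 CPM, 246 to 278) in LMPP, 1262 (211 CPM, 199.98 to 223) in CLP and 3166 (430 CPM, 415 to 445) in pro-B. Ldhb (chr6:142490249-142507957, minus strand), whose H subunit favours the use of lactate, had 267 UMIs (66.5 CPM, 58.8 to 74.98) in LMPP, 174 (29.2 CPM, 24.99 to 33.8) in CLP and 13 (1.76 CPM, 0.94 to 3.02) in pro-B. Ldhb was 2.28-fold lower in CLP than in LMPP (log2 −1.19, −1.47 to −0.91), 16.5-fold lower in pro-B than in CLP (−4.05, −4.98 to −3.23) and 37.7-fold lower in pro-B than in LMPP (−5.24, −6.16 to −4.44). Over the alternatives its pro-B over CLP ratio ran from −4.41 to −2.62, so it stayed past 2-fold in each. Ldhb thus held 20.3% (18.1 to 22.5) of lactate dehydrogenase UMIs for LMPP, 12.1% (10.5 to 13.9) for CLP and 0.41% (0.22 to 0.70) for pro-B. Ldha stood 2.03-fold above its CLP level in pro-B (log2 1.02, 0.93 to 1.12), but this ratio ranged from 0.23 to 1.15 over the alternatives, lowest in cells low in cycle transcripts.

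Within the CLP library Ldhb was at 34.1 CPM (26.8 to 42.9) in the 321 thinned cells with neither Ebf1 nor Ly6d UMIs and at 35.1 CPM (26.1 to 46.2) in the 212 with Ly6d but no Ebf1. It was at 22.8 CPM (16.8 to 30.2) in the 343 cells with Ebf1 but no Pax5, and the 32 cells with Pax5 had 0 UMIs, an interval that reached 20.9 CPM. That upper end lay below the intervals of both classes without Ebf1 and within that of the cells with Ebf1 but no Pax5. Pgls had 506 CPM (477 to 537) in cells with neither Ebf1 nor Ly6d, 749.5 CPM (706 to 795) in those with Ly6d but no Ebf1, 605 CPM (572 to 639) in those with Ebf1 but no Pax5 and 571 CPM (465 to 694) in those with Pax5. The class with Ly6d but no Ebf1, where Pgls was highest, also had the most cells rich in S phase or G2/M transcripts, 45.3%, against 31.2% with neither gene, 24.8% with Ebf1 but no Pax5 and 21.9% with Pax5. Over the whole CLP library Pgls had 682 CPM in cells rich and 557 CPM in cells low in cycle transcripts. The part of this in the order of the classes was not tested. In LMPP Pgls had 305 CPM in rich and 265 CPM in low cells. In pro-B the direction was the opposite, with 881 CPM in rich and 1058 CPM in low cells (log2 −0.26, −0.35 to −0.17). Ldha had 205 to 277 CPM in the 4 CLP classes.

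Of the 2 lactate carriers, Slc16a1 was higher in pro-B than in CLP, while Slc16a3 had too few UMIs to set these libraries apart. Slc16a1 (chr3:104638668-104658462, plus strand), the carrier MCT1, had 26 UMIs (6.48 CPM, 4.23 to 9.49) in LMPP, 42 (7.04 CPM, 5.07 to 9.51) in CLP and 282 (38.3 CPM, 33.9 to 43.0) in pro-B. CLP and LMPP did not differ beyond counting error, and pro-B was 5.44-fold higher than CLP (log2 2.44, 1.97 to 2.95), with 1.53 to 2.61 over the alternatives. Slc16a3, the carrier MCT4, had 9 UMIs in LMPP, 6 UMIs in CLP and 1 UMI in pro-B. Its level was lower in pro-B than in LMPP (log2 −4.05, −9.50 to −1.19), while the pro-B over CLP ratio (−2.89, −8.41 to 0.15) and the CLP over LMPP ratio (−1.16, −2.93 to 0.50) did not exceed counting error. Slc16a1 was therefore 99.6% (98.05 to 99.99) of the UMIs of both carriers in pro-B, against 87.5% (74.8 to 95.3) in CLP and 74.3% (56.7 to 87.5) in LMPP.

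At the entry of pyruvate into the mitochondrion, Pdha1, the E1 alpha subunit of pyruvate dehydrogenase, had 69.0 CPM in LMPP, 74.4 CPM in CLP and 64.5 CPM in pro-B, with a log2 ratio of −0.21 (−0.40 to −0.02) in pro-B over CLP. Its inhibitory kinases stood in different proportions. Pdk1 had 65.8 CPM in LMPP, 75.9 CPM in CLP and 37.5 CPM in pro-B and was 2.03-fold lower in pro-B than in CLP (log2 −1.02, −1.24 to −0.80), a ratio short of 2-fold with every cell weighted equally (−0.67), under median-of-ratios scaling, where it was just under 2-fold, and in cells low in cycle transcripts (−0.27). Pdk3 had 25.2 CPM in LMPP, 21.1 CPM in CLP and 40.6 CPM in pro-B (log2 of pro-B over CLP 0.94, 0.64 to 1.25). Pdk3 held 52.0% (47.8 to 56.2) of the UMIs of both kinases in pro-B, against 21.8% (18.5 to 25.3) in CLP and 27.7% (23.1 to 32.6) in LMPP.

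The pentose phosphate genes split by step. In the oxidative branch G6pdx, the first enzyme and a source of NADPH, had 15.4 CPM in LMPP, 11.9 CPM in CLP and 11.5 CPM in pro-B, and Pgd, the other NADPH-making enzyme, had 32.9 CPM in LMPP, 30.3 CPM in CLP and 29.05 CPM in pro-B, with overlapping intervals in all 3 libraries for both. Pgls (chr8:71592176-71601092, plus strand), the lactonase between them, had 275.5 CPM (260 to 292) in LMPP, 603 CPM (583 to 623) in CLP and 907 CPM (886 to 929) in pro-B. It was the only member 2-fold or more higher in CLP than in LMPP (log2 1.13, 1.03 to 1.23), and it was higher again in pro-B than in CLP (0.59, 0.53 to 0.65). Its intervals did not overlap, and the order LMPP, CLP, pro-B was the same under the 13 alternatives. The 1.5-fold threshold, the 50 CPM minimum and the setting without a filter are among them and cannot change this order. Of its 5 annotated transcripts, 1, a nonsense-mediated decay form, runs into Fam129c, the next gene on the same strand, which stood at 2.99 CPM in LMPP, 10.6 CPM in CLP and 71.1 CPM in pro-B. Reads in the overlap cannot be told apart in the counts, and their part in the Pgls levels was not tested.

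In the non-oxidative branch Rpia, which makes ribose 5-phosphate, had 46.1 CPM in LMPP, 38.4 CPM in CLP and 98.1 CPM in pro-B, with pro-B 2.56-fold above CLP (log2 1.35, 1.14 to 1.58), and 1.04 to 1.61 over the alternatives. Taldo1, transaldolase, had 174 CPM in LMPP, 130.2 CPM in CLP and 272 CPM in pro-B (log2 of pro-B over CLP 1.06, 0.94 to 1.18), which was 0.75 without mitochondrial and ribosomal genes in the total. Tkt, transketolase, had 189 CPM in LMPP, 170 CPM in CLP and 210.3 CPM in pro-B, with a log2 ratio of 0.31 for pro-B over CLP that vanished under the same scaling. Hif1a, which drives many glycolytic genes in low oxygen, had 19.2 CPM in LMPP, 25.1 CPM in CLP and 26.1 CPM in pro-B, and CLP and pro-B did not differ beyond counting error (log2 0.05, −0.26 to 0.37).

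Cells with cycle transcripts were far more frequent in the pro-B library, so levels were also compared inside it. Cells rich in cycle transcripts (739 cells with 3 or more S phase or G2/M UMIs after thinning) were set against 331 cells low in both. Ldha had 471 CPM (454 to 489) in the rich cells and 223 CPM (196 to 252) in the low cells (log2 1.08, 0.89 to 1.27). Gapdh had 1311 and 673 CPM (0.96, 0.86 to 1.07), Slc16a1 41.9 and 20.2 CPM (1.05, 0.43 to 1.74) and Tpi1 180 and 106 CPM (0.76, 0.49 to 1.04) in rich and low cells. Eno1 had 228 CPM in rich and 221 CPM in low cells and Pkm 348 CPM in rich and 339 CPM in low cells, with intervals of the ratio that included 0. In the other direction Aldoa had 89.8 CPM in the rich and 185 CPM in the low cells (−1.05, −1.28 to −0.81), Pdk1 30.8 CPM in rich and 67.6 CPM in low cells (−1.13, −1.52 to −0.73), and Ldhb 7 UMIs (1.14 CPM) in rich and 6 UMIs (5.27 CPM) in low cells (−2.21, −4.01 to −0.36). The members' median over 31 genes was 0.04, beside −0.20 for all genes of the library. Of the 31 members, 2 were 2-fold or more higher in the rich cells, beside 10.1% of all genes, and 4 were lower, beside 18.4%. In LMPP and CLP the same split gave members' medians of 0.11 and 0.18 in rich over low cells, beside 0.01 and 0.02 for all genes, and a single member past 2-fold, Pfkp in LMPP, from 8 UMIs in rich and 7 in low cells (1.52, −0.14 to 3.22). Over all genes 7.18% were 2-fold higher and 5.58% lower in the rich cells of LMPP, and 7.26% higher and 5.24% lower in those of CLP.

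**Figure D5:**
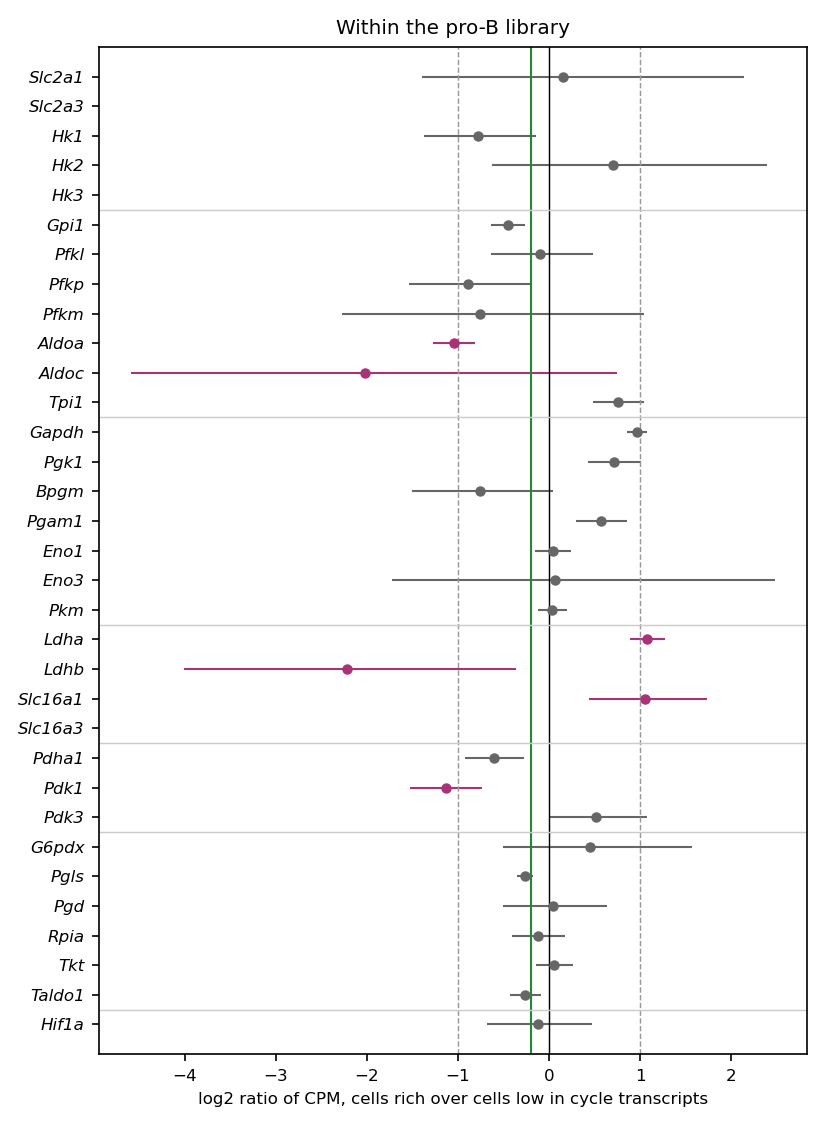
Log2 ratio of each member (x axis) between pro-B cells rich and pro-B cells low in cycle transcripts, with exact 95% intervals. Ldha, Slc16a1 and Gapdh lie near 1, Eno1 and Pkm near 0, and Aldoa and Pdk1 near −1. Slc2a3, Hk3 and Slc16a3 are not drawn because a class had 0 UMIs.

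When both libraries were reduced to cells low in cycle transcripts (620 CLP and 331 pro-B cells), the pro-B over CLP log2 ratio was 0.32 for Gapdh, 0.57 for Pgk1 and 0.23 for Ldha, all short of 2-fold. It was 1.47 for Eno1, 1.13 for Pkm, 1.32 for Taldo1, 1.61 for Rpia, 3.65 for Pfkp and 1.53 for Slc16a1, all past it, and −2.62 for Ldhb. In those cells 6 members were 2-fold higher in pro-B and 4 lower, beside 16.9% and 15.7% of all genes.

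In LMPP the cells with granulocyte and monocyte marker UMIs had more of several glycolytic transcripts. Their summed member level was 3745 CPM (3670 to 3822), against 3381 CPM (3289 to 3476) in the other LMPP cells. Ldha had 287 CPM (266 to 309) and 219 CPM (196 to 244), Pgam1 160 CPM (145 to 176) and 108 CPM (91.9 to 126), and Pfkl 52.3 CPM (43.8 to 62.1) and 32.2 CPM (23.7 to 42.6) in the marked and the other cells. Aldoa, at 315 CPM in the marked and 302 CPM in the other cells, had overlapping intervals. Without such cells in any library the members' median log2 ratio for CLP over LMPP was −0.28, beside −0.02 over all genes, and 4 members were 2-fold lower in CLP, beside 8.15% of all genes. The marked class was set on UMIs before thinning, so deeper cells enter it more readily. The part of depth in these values was not tested.

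Of the genes next to these routes, the serine and one-carbon list had 2 of 8 genes 2-fold or more above CLP in pro-B and 0 below (median log2 0.86). They were Psat1, which makes phosphoserine from a product of a glycolytic intermediate (110.4 CPM in pro-B, 29.5 in CLP), and Mthfd2, a mitochondrial folate enzyme (71.1 CPM in pro-B, 18.6 in CLP). The nucleotide list had 2 of 9 above and 0 below (median 0.30), among them Prps1, which activates ribose phosphate, at 77.8 CPM in pro-B and 22.3 in CLP. The TCA cycle list had 1 of 16 above, Fh1, fumarase (98.8 CPM in pro-B, 38.2 in CLP), and 0 below, with a median of 0.74. The NADPH and glutathione list had 2 of 8 above, Me2, a malic enzyme (64.3 CPM in pro-B, 25.5 in CLP), and Gclm, a subunit of the first enzyme of glutathione synthesis (72.6 CPM in pro-B, 35.7 in CLP), and 2 below. The hypoxia response list had 0 of 13 above and 1 below (median −0.26). The lists of pyruvate entry (1 above and 2 below of 9), fructose bisphosphate control and gluconeogenesis (1 and 2 of 8), glycogen and sugar nucleotides (1 and 1 of 12) and other isoforms (0 and 4 of 8) had no gene of 50 CPM or more past 2-fold in this comparison. The counts over all genes, 13.1% higher and 21.1% lower, stand beside these as well. Among regulators, Myc, a driver of glycolytic genes, had 115 CPM in LMPP, 134 CPM in CLP and 23.6 CPM in pro-B and was 5.65-fold lower in pro-B than in CLP (log2 −2.50, −2.74 to −2.26). Txnip, which curbs glucose uptake, had 128 CPM in LMPP, 70.7 CPM in CLP and 47.9 CPM in pro-B, and Rptor, a part of mTORC1, had 12.95 CPM in LMPP, 23.8 CPM in CLP and 56.2 CPM in pro-B, with pro-B 2.36-fold above CLP.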

How the data were processed

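The values are raw UMI counts, as deposited. Per the submitters' processing notes, the authors ran Cell Ranger with mm10. Its version, the gene annotation and the cell-calling rule are not given in the sources used. A barcode needed 500 genes and no more than 10% mitochondrial UMIs. This left out 20 barcodes of LMPP and 31 of CLP for mitochondrial UMIs, and for pro-B 16 for these and 1 for few genes. Between libraries, 3 barcode sequences were shared by CLP with LMPP, 2 by pro-B with CLP and 1 by pro-B with LMPP. Scrublet as run in scanpy called 25, 16 and 0 cells as doublets in LMPP, CLP and pro-B; they were kept and left out in an alternative. With 0 calls among 1106 pro-B cells this alternative removes nothing there, so doublets in pro-B were not examined.

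Counts were summed over cells and scaled to the library total. Ratios carry exact conditional Clopper-Pearson intervals, levels exact Poisson intervals, and a library with 0 UMIs was set to 3. Cells were thinned to 2000 UMIs for the cycle classes, the CLP classes by Ebf1, Ly6d and Pax5, and the per-cell values. This left out 6, 40 and 36 shallower cells of LMPP, CLP and pro-B. The granulocyte and monocyte class and the other-lineage classes took 3 or more UMIs before thinning, so deeper cells enter them more readily. The members and all lists were chosen with earlier results of these data known. The rule for named genes took all members with 10 or more UMIs, and from each other list up to 4 genes with 50 CPM or more and a ratio of 2-fold or more. Cell classes by Ebf1, Ly6d, Pax5 or myeloid markers follow fixed marker lists but were compared after the data were seen. The ratio step was checked on simulated counts. The 10 alternatives and 3 added after seeing the data are given in the closing section. Positions come from GENCODE M21 (GRCm38), where all 34 genes matched by Ensembl ID, and promoters from RefSeq. Near-identical copies share 95% or more over 200 or more of the last 500 transcript bases, and 18 members overlap another annotated gene. Tools were scanpy 1.11.5, SciPy 1.17.1, NumPy 2.4.6, anndata 0.12.19, pandas 2.3.3, matplotlib 3.10.9 and scikit-learn 1.9.0 under Python 3.11.15.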

Additional observations from a re-analysis of the deposited data

How the results depend on the processing

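No paired analysis was possible because each population has 1 library. The single member 2-fold higher in CLP than in LMPP remained 1 in every alternative. Scaling without mitochondrial and ribosomal protein genes left 4 members higher in pro-B than in CLP and a median log2 ratio of −0.54 for pro-B over LMPP. With the minimum of 50 CPM in the higher library, which leaves 15 to 17 members, 3 were lower in CLP than in LMPP. In pro-B against CLP 1 was lower (median 0.89), and in pro-B against LMPP 2 were higher and 3 lower (median 0.16). At 1.5-fold, 13 were lower in CLP than in LMPP, beside 14.04% of all genes, and 9 higher in pro-B than in LMPP, beside 24.1%. In cells low in cycle transcripts 4 members were lower in pro-B than in CLP, and the Aldoc ratio turned to 0.48 from few UMIs. In cells rich in cycle transcripts, an alternative chosen after seeing the data, 2 were higher in pro-B than in LMPP, beside 12.5% of all genes. Leaving out cells with myeloid markers, or with other-lineage markers apart from Nkg7, was chosen likewise. Where a setting does not remove genes or cells by its own construction, the cause was not tested. Depth limits Aldoc, Slc16a3, Hk3, Slc2a1, Eno3 and Pfkm, which rest on few UMIs. It also limits Pfkp in LMPP (15 UMIs) and in CLP (14 UMIs).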
